A study of Rattus norvegicus with 64 samples.

Results

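The comparison set rats that were given amphetamine (AMPH) in a cool 16 °C environment, where they stayed normothermic, against rats that were given saline in a 39 °C environment and became hyperthermic without any drug (environmentally-induced hyperthermia, EIH). Its question is which blood transcripts separate drug without heat from heat without drug. A rat was a member if it belonged to 1 of these groups and if its file name carried 1 of the 5 sequencing project codes that hold rats of both groups (H27649, H33741, W26620, H30620 and H30622). This left 18 of the 64 rats of the series, 11 given AMPH and 7 with EIH. Project H27649 held 4 AMPH and 2 EIH rats, H30620 held 3 and 2, H30622 held 2 and 1, and H33741 and W26620 held 1 of each.

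All 18 rats were adult male Sprague-Dawley rats, an outbred laboratory stock. Each received 4 injections spaced 2 h apart, of saline in the EIH rats and of AMPH in the others, and blood was taken by cardiac puncture 3 h after the last injection. The submitters describe the AMPH treatment at 16 °C as not neurotoxic, and the dose given to rats at 16 °C is not given in the sources used here. The groups differed in both drug and environment, so an effect of the drug, of cooling and of heating cannot be told apart within this contrast. For orientation, levels are also given for the other groups of the series, namely 5 rats given saline at 16 °C, 6 given saline at 22.5 °C and 22 given AMPH at 22.5 °C, which became hyperthermic. The 5 saline rats at 16 °C all came from project H33741 and the 6 at 22.5 °C from projects that hold no rat of either compared group, so for these levels group and project cannot be told apart, and none was tested.

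Heat unfolds proteins inside cells, and the heat shock factor HSF1 answers by binding repeated GAA and TTC units in the promoters of chaperone genes and switching them on. The chaperones HSP70, HSP90, HSP110 and HSP60, with helpers of the DNAJ (HSP40) family and other co-chaperones, then hold and refold the unfolded proteins. A small opposite class, the cold-inducible RNA-binding proteins, is expressed more when cells cool. Whole blood holds neutrophils, monocytes, lymphocytes, platelets and reticulocytes, and AMPH, which releases catecholamines, and heat stress are both known to change which of these cells circulate.

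RNA was depleted of globin transcripts and sequenced from polyadenylated RNA. The 18 rats had total counts between 22946699 and 36838622, with medians of 27893857 in the AMPH and 26113716 in the EIH group. Hemoglobin genes still took 4.69%, 10.3% and 31.1% of the counts (lowest, median, highest) in the AMPH group and 2.78%, 4.26% and 16.6% in the EIH group. With project as a term, the difference in this share was 3.35 percentage points (two-sided exact permutation test within projects, p = 0.374), and it was 1.58 points without AMPH replicate 2 (p = 0.552). That rat stood apart: it had the share of 31.1% and 19852 counts of Mb, the myoglobin transcript of heart and skeletal muscle, where the other 17 rats had at most 1133 (EIH replicate 4). EIH replicates 13 and 15 had hemoglobin shares of 16.5% and 16.6%. Values are given below as normalized counts, that is counts divided by a size factor of each rat, and the size factors of AMPH replicate 2 (0.532), EIH replicate 15 (0.524) and EIH replicate 13 (0.619) were the smallest of the 18. The first principal component of the 18 rats, with 18.6% of the variance, placed all 7 EIH rats at negative and all 11 AMPH rats at positive values.

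Of 12164 genes tested, 1226 (10.1%) passed the threshold of an adjusted p under 0.05 and an absolute log2 fold change above 0.58. Of these, 559 (4.6%) were higher in AMPH rats at 16 °C and 667 (5.48%) were higher in EIH rats. Fold changes are written as AMPH at 16 °C over EIH, so a negative log2 value is a gene higher in EIH, and they come from a fit with the project code as a term. The groups did not overlap in 106 genes (0.871%) that were higher in AMPH rats and 88 (0.723%) that were higher in EIH rats. Each rat was also left out in turn, and 309 (2.54%) and 383 (3.15%) genes, respectively, kept their call in all 18 of these fits. The difference between group means within a project had the sign of the fit in all 5 projects for 1010 of the 1226 called genes (82.4%), against 19.6% of all genes tested. The called genes were selected from the same rats in a fit that favours such agreement, so their greater share is not separate support. Without AMPH replicate 2 the counts were 535 (4.42%) and 673 (5.56%). Without the project term they were 534 (4.39%) and 663 (5.45%), with DESeq2 722 (5.94%) and 798 (6.56%), and at an absolute log2 fold change above 1 they were 250 (2.06%) and 272 (2.24%). In bulk blood, fewer cells of a type and less RNA per cell cannot be told apart, which holds for every gene below.

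The cytosolic heat shock chaperones were the list with the greatest share of members past the threshold in the EIH direction. Despite its name, this list also holds the mitochondrial chaperones Hspd1 and Hspe1. Hspa1b and Hspa8 each enter it under 2 identifiers, so its 20 called entries are 18 symbols. Of 32 entries tested, 20 were higher in EIH (62.5%, against 5.48% of all genes) and 0 in AMPH rats, and the median log2 fold change of the list was -1.55, against 0.01 over all genes. All 20 kept their call in each of the 18 fits without 1 rat, and without AMPH replicate 2 the count was 21. Summed over the list, the AMPH rats had 34393, 43972 and 60541 normalized counts (lowest, median, highest) and the EIH rats 117155, 310304 and 1658226. The lowest EIH rat thus lay above the highest AMPH rat in the summed level.

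The HSP70 and HSP110 genes held the greatest differences. Hspa1b, a heat-inducible HSP70, had 11.6, 57.8 and 462 normalized counts (lowest, median, highest) in the AMPH group and 1505, 14160.1 and 251411 in the EIH group. All 7 EIH rats lay above every AMPH rat, and levels also spread widely within the EIH group itself, where replicate 14 was lowest and replicate 15 highest. Its log2 fold change was -8.59 ± 0.80 (SE), 386-fold higher in EIH (adjusted p = 1.06e-05). The files list Hspa1b under 2 identifiers with identical counts, and the near-identical neighbour Hspa1a was not in the list of genes shared by all 18 files, so reads of these copies cannot be assigned with certainty. Hsph1, which encodes HSP110, a nucleotide exchange factor of HSP70, had 229, 448 and 1085 normalized counts in AMPH and 14923, 45661 and 180742 in EIH rats. The lowest EIH rat lay far above the highest AMPH rat, and the log2 fold change was -6.86 ± 0.49 (116-fold, adjusted p = 1.07e-06). Hspa8, the constitutive HSP70, was already abundant in AMPH rats, with 9731, 11631 and 19116 normalized counts, and had 24920.3, 52819 and 123357 in EIH rats. Its groups did not overlap either, with a smaller log2 fold change of -2.12 ± 0.27 (4.34-fold, adjusted p = 0.000133). A second Hspa8 identifier with far fewer counts gave -1.62 ± 0.23, and reads shared between the 2 copies are uncertain.

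The HSP90 genes followed. Hsp90aa1, the inducible cytosolic HSP90, had 2401, 4738 and 6908 normalized counts in AMPH and 20690.1, 90413 and 441481 in EIH rats. No rat of either group fell into the range of the other, and the log2 fold change was -4.82 ± 0.50 (28.3-fold, adjusted p = 2.88e-05). Hsp90ab1, the more constitutive HSP90, had 4904, 6049 and 11069 in AMPH and 15985, 53681 and 186184 in EIH rats, again with no overlap, and a log2 fold change of -3.22 ± 0.37 (9.33-fold, adjusted p = 5.87e-05). Stip1, the adaptor (HOP) that passes client proteins from HSP70 to HSP90, ranged from 300.1 to 809 in AMPH rats and from 1421 to 7428 in EIH rats. All 7 EIH rats lay above the AMPH range (log2 fold change -3.14 ± 0.30, adjusted p = 1.25e-05).

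Co-chaperones of HSP70 changed as well. Dnajb1 and Dnaja1 encode HSP40 proteins that hand clients to HSP70. Dnajb1 had 605, 788 and 1214 normalized counts in AMPH and 1311, 3028 and 6722 in EIH rats, and its log2 fold change was -1.83 ± 0.23 (3.55-fold, adjusted p = 0.000136). Dnaja1 had 2126, 3877 and 7408 and 12089, 40282 and 80330.4, with a log2 fold change of -3.13 ± 0.26 (8.75-fold, adjusted p = 4.51e-06). Neither gene overlapped between the groups. Bag3, which couples HSP70 to autophagy, had 65.1, 90.0 and 226 in AMPH and 341, 956 and 2688 in EIH rats. The highest AMPH rat remained below the lowest EIH rat, and the log2 fold change was -3.33 ± 0.28 (10.0-fold, adjusted p = 4.51e-06). The mitochondrial chaperonin pair of the list, Hspd1 (HSP60) and Hspe1 (HSP10), was also higher in EIH, with log2 fold changes of -3.67 ± 0.62 and -2.93 ± 0.51. Hsf1, the factor itself, was not called (log2 fold change -0.40 ± 0.17, adjusted p = 0.149), and 11 further entries of the list did not pass the threshold.

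**Figure D1:**
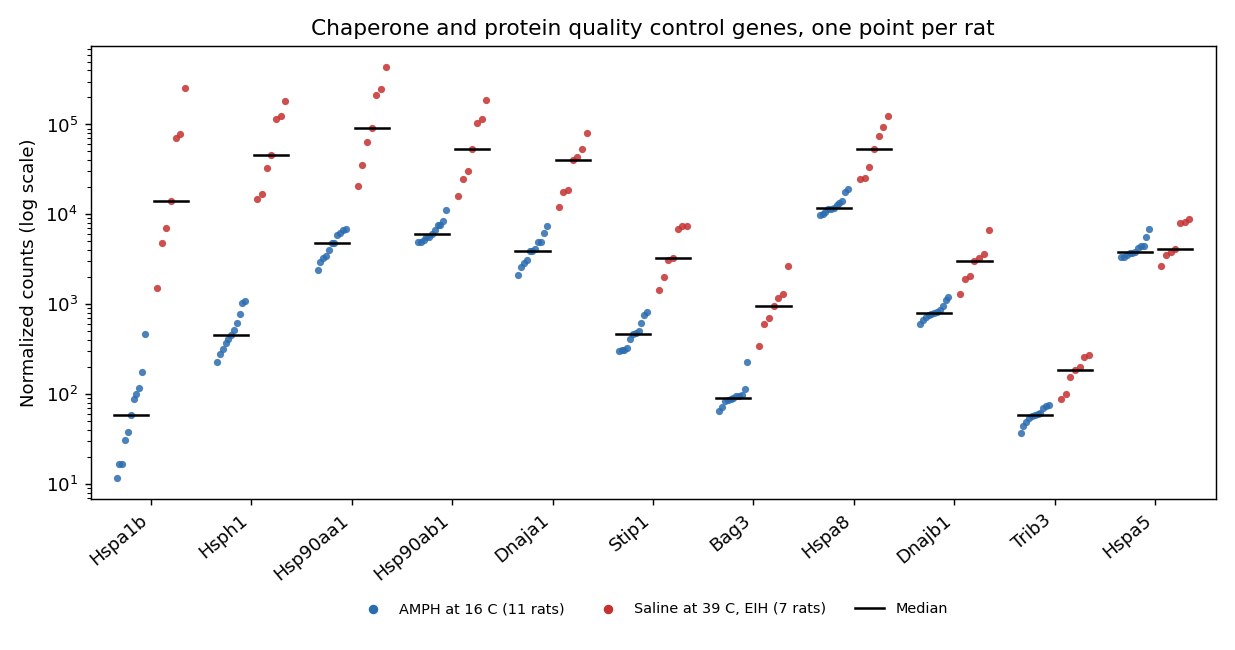
Normalized counts (log axis) of chaperone and protein quality control genes, 1 point per rat, for 11 AMPH rats at 16 °C (blue) and 7 EIH rats (red), with the group median as a black bar. The groups do not overlap from Hspa1b to Trib3, whereas in Hspa5 the points of the groups overlap.

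Single EIH rats stood at the ends of the group in most chaperones. Of the 20 called entries, EIH replicate 15 was the highest EIH rat in 18, replicate 14 the lowest in 15 and replicate 4 the lowest in the other 5. Replicates 2, 3 and 15 lay above every AMPH rat in all 20 entries, and replicates 13, 1, 4 and 14 did so in 19, 17, 13 and 12. EIH replicate 15 was also the rat with the smallest size factor, and the part of that in its levels was not tested. Without this rat 20 of the 32 entries were still called, and Hspa1b kept a log2 fold change of -7.81. Within projects, the difference of Hsph1 ran from -5.22 in W26620 to -9.39 in H30622 on the log2 scale.

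Promoter sequences of 5 chaperone genes higher in EIH and of Bst2 are shown because they hold overlapping units, so that the repeats can be read directly, and they were not chosen by the size of the difference. The window runs from 250 bases before to 50 bases after each gene's start in the RefSeq annotation of build GRCr8, on the gene's own strand, and is not the rn5 build of the count files. Paired heat shock units were searched as GAANNTTC and TTCNNGAA, each of which reads the same on both strands, and the capitals below mark every match. Neighbouring matches that share 3 letters form a longer run of alternating units.
Hsph1 (chr12:10427118-10427417, + strand): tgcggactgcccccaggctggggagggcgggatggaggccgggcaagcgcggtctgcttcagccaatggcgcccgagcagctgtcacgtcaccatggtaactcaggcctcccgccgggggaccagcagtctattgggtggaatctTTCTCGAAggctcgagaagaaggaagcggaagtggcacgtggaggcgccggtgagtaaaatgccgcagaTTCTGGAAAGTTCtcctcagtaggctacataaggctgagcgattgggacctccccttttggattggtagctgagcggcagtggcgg
Dnaja1 (chr5:60638154-60638453, + strand): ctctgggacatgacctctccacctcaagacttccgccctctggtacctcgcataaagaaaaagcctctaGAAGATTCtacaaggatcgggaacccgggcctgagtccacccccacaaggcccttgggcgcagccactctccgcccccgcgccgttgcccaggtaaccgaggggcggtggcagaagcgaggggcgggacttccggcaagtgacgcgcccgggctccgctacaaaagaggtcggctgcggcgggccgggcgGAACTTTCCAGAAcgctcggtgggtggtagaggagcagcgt
Hspa8 (chr8:50080264-50080563, + strand): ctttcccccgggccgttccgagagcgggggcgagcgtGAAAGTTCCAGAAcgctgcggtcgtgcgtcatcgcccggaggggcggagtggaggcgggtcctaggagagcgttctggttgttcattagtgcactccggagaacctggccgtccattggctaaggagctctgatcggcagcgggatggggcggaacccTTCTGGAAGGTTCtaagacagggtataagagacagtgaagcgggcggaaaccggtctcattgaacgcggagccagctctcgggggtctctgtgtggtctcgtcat
Hspe1 (chr9:64084077-64084376, + strand): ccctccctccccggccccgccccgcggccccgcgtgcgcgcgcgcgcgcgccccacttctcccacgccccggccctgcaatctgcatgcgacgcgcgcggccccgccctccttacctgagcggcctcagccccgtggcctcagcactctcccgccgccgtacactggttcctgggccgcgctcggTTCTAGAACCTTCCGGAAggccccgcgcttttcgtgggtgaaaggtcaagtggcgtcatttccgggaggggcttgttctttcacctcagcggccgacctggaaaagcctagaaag
Chordc1 (chr8:23650571-23650870, + strand): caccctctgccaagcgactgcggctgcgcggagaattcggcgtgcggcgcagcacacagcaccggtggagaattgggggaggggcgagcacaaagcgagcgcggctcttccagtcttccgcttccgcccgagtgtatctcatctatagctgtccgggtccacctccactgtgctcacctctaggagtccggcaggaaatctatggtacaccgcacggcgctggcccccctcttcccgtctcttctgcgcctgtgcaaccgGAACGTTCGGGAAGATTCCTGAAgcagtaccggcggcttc
Bst2 (chr16:18254918-18255217, - strand): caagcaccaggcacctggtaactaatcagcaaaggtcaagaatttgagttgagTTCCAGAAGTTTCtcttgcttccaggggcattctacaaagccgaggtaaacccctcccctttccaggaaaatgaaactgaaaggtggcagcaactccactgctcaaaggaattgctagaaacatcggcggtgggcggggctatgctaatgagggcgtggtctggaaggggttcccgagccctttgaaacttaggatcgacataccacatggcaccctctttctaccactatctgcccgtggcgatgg

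In the first 5 windows the overlapping units began between base -213 and base 26 relative to the start, and Chordc1, the gene of a co-chaperone of HSP90, held a run of 4 of them. Of the 18 chaperone symbols higher in EIH, 15 had a promoter in the table, and 12 of these (80%) held either unit and 6 (40%) held overlapping units. The 6 were Chordc1, Dnaja1, Hspa8, Hspd1, Hspe1 and Hsph1, and the windows of Hspd1 and Hspe1 overlap and share the element. Among all 33469 promoter windows, 15.9% held either unit and 0.798% held overlapping units. Of the 9 chaperone symbols that were tested and not called and had a promoter, 5 held either unit and 1, Serpinh1, held overlapping units. Taken over all genes with a promoter, either unit stood in 14.9% of genes higher in EIH, 10.6% of those higher in AMPH rats and 12.7% of those tested. Overlapping units stood in 13 of 469 genes higher in EIH (2.77%), in 2 of 396 higher in AMPH rats (0.505%) and in 43 of 8260 tested (0.521%). The 13 include the 6 chaperones named above, and Bst2, described with the interferon genes below, was another of the 13. A match describes the sequence only, and binding was not measured.

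Lists of other protein quality control genes held smaller shares of called members. The cytosolic chaperonin TRiC folds actin and tubulin, and 3 of its 8 subunit genes were higher in EIH and 0 in AMPH rats, with a median log2 fold change of -0.55. Cct3 had 816, 1314 and 1726 normalized counts in AMPH and 1410.1, 2182 and 3708 in EIH rats (log2 fold change -0.82 ± 0.19, adjusted p = 0.0101), and it was the only subunit called in all 18 fits without 1 rat. The count of 3 was 1 without EIH replicate 2, 3 or 15 and 5 without EIH replicate 13 or 14 or AMPH replicate 8. Among 22 endoplasmic reticulum (ER) stress genes, 2 were higher in EIH (9.09%), and the list median was -0.06. Trib3, a pseudokinase induced by ER and amino acid stress, had 36.9, 59.0 and 76.3 in AMPH and 88.1, 185 and 271 in EIH rats without overlap (log2 fold change -1.56 ± 0.18, adjusted p = 5.87e-05). Ddit3, the stress transcription factor CHOP, was the other one (log2 fold change -0.73 ± 0.17, adjusted p = 0.0112). By contrast Hspa5, the HSP70 of the ER known as BiP, had overlapping levels of 3324, 3802 and 6839.8 and 2650.3, 4146 and 8789.7 and did not pass the test (log2 fold change -0.29 ± 0.22, adjusted p = 0.466). Zfand2a, a zinc finger protein that associates with the proteasome and is induced by arsenite and heat, was among the 15 named genes with the most negative fold change and had 219, 364 and 571 and 1217, 4203 and 54041 normalized counts, with no overlap (log2 fold change -4.77 ± 0.58, 27.3-fold, adjusted p = 0.000104).

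Both cold-inducible RNA-binding protein genes were higher in AMPH rats at 16 °C, but with overlap between the groups. Rbm3 had 1256, 2433 and 3995 normalized counts in AMPH and 618, 1044 and 2489 in EIH rats, and 5 of 11 AMPH rats lay above every EIH rat. Its log2 fold change was 1.12 ± 0.29 (2.18-fold, adjusted p = 0.0184), and it stayed called in all 18 fits without 1 rat, with adjusted p up to 0.0474. Cirbp had 192, 502 and 868 in AMPH and 72.7, 300.2 and 654 in EIH rats, where EIH replicate 1 reached into the upper AMPH range. Its log2 fold change of 0.96 ± 0.30 passed narrowly (adjusted p = 0.047), and it was called in 4 of 18 fits without 1 rat, with adjusted p up to 0.132 without EIH replicate 15. In the other groups, Rbm3 had medians of 2129 in saline rats at 16 °C, 2137 in saline rats at 22.5 °C and 977 in AMPH rats at 22.5 °C. The medians of both saline groups thus lay close to the AMPH group at 16 °C and that of the AMPH group at 22.5 °C close to EIH.

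Among the 15 named genes with the greatest positive fold change, none overlapped between the groups, which the rule for naming required. Rsad2, which encodes the antiviral enzyme viperin, was the most abundant of them, with 17936, 27463 and 48533 normalized counts in AMPH and 2977, 4175 and 6392 in EIH rats. The lowest AMPH rat lay well above the highest EIH rat, and the log2 fold change was 2.64 ± 0.26 (6.22-fold, adjusted p = 1.25e-05). Cyr61, a secreted matricellular protein, had 78.2, 331 and 563 and 22.5, 41.9 and 44.7, the greatest fold change of the 15 (2.93 ± 0.34, 7.61-fold, adjusted p = 7.55e-05). Its EIH levels were tightly grouped, while 3 AMPH rats lay well below the other 8.

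Clec4b2, a C-type lectin receptor of myeloid cells, had 213, 708.2 and 1762 in AMPH and 73.9, 127 and 165 in EIH rats (log2 fold change 2.71 ± 0.40, adjusted p = 0.000408). Scimp, a membrane adaptor that carries signals from pattern receptors, had 1336, 2136 and 3596 and 300.1, 503 and 669 (log2 fold change 2.26 ± 0.19, adjusted p = 4.51e-06), with the smallest standard error of the 15. In both genes every AMPH rat exceeded every EIH rat. Il22ra2, the soluble decoy receptor of interleukin 22, had 372, 573 and 1336 and 87.5, 171 and 236 (log2 fold change 1.95 ± 0.20, adjusted p = 2.27e-05). Slc43a3, a purine nucleobase transporter, had 1656, 3623 and 5448 and 511, 673 and 1059 (log2 fold change 2.15 ± 0.26, adjusted p = 8e-05). Memo1, a protein of cell motility, had 1856, 4422 and 10107 and 613, 941 and 1736 (log2 fold change 2.21 ± 0.25, adjusted p = 5.63e-05). These 3 genes again showed separate ranges, and the gap was narrowest in Memo1, between 1736 and 1856.

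The other 8 of the 15 had log2 fold changes between 1.88 and 2.62. Ugt8, the enzyme that makes galactosylceramide, rose from 28.5 to 64.6 in EIH rats to 84.2 to 827 in AMPH rats (2.62 ± 0.34, adjusted p = 0.000158). Schip1, a cytoskeletal adaptor, had a low level throughout, with medians of 119 and 20.0 (2.54 ± 0.37, adjusted p = 0.000351). RGD1565355 had medians of 3869 and 851 (2.22 ± 0.33, adjusted p = 0.000408). Mdm1, a microtubule-binding protein of centrioles, had 453 and 117 (1.97 ± 0.28, adjusted p = 0.000324). The semaphorin Sema4f had medians of 585 and 158 (1.96 ± 0.24), 9130014G24Rik of 396 and 101 (1.94 ± 0.26), Tmco4 of 560.3 and 169.6 (1.92 ± 0.27), and Hdac6, a cytosolic deacetylase of tubulin, of 218 and 59.1 (1.88 ± 0.25). All 15 were called in each of the 18 fits without 1 rat, as the rule required. All 15 also differed in the same direction in all 5 projects, which follows from groups that do not overlap and is no separate check.

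**Figure D2:**
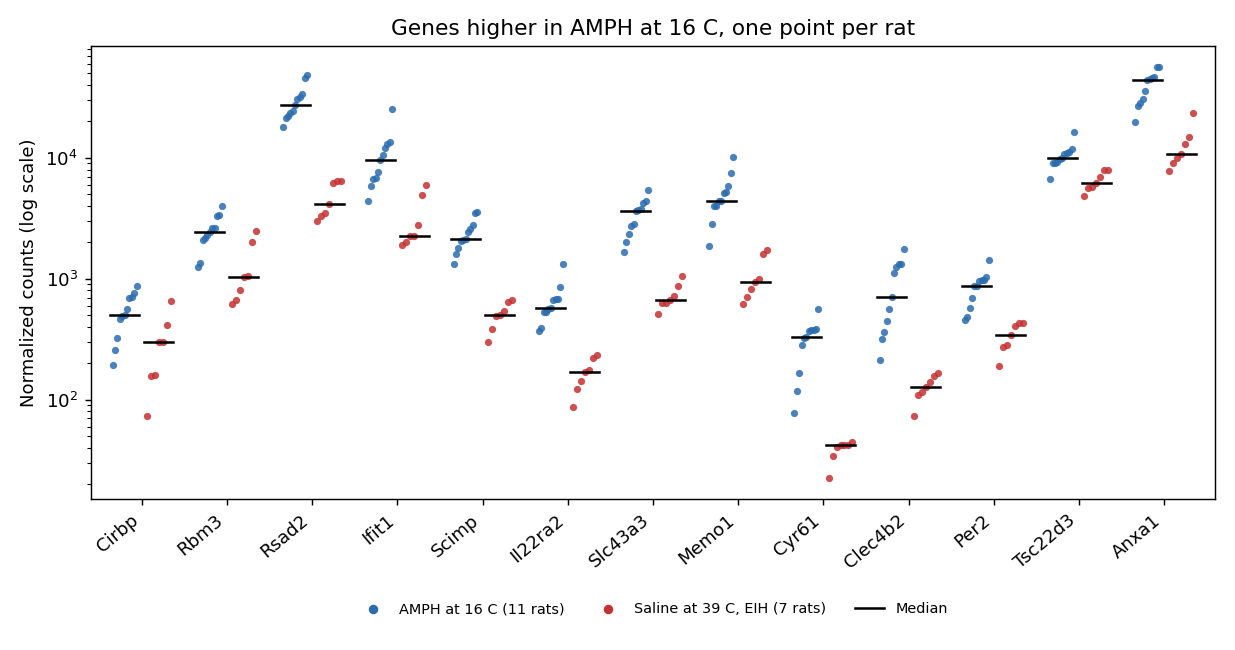
Normalized counts (log axis) of genes higher in AMPH rats at 16 °C, 1 point per rat, for 11 AMPH rats (blue) and 7 EIH rats (red), with the group median as a black bar. The groups are separate in Rsad2, Scimp, Il22ra2, Slc43a3, Memo1, Cyr61, Clec4b2 and Per2 and overlap in Cirbp, Rbm3, Ifit1, Tsc22d3 and Anxa1.

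The levels in the other groups divided the called genes. Among the 667 genes higher in EIH, the median of saline rats at 16 °C was nearer to that of AMPH rats at 16 °C than to that of EIH in 595 (89.2%), and so was the median of saline rats at 22.5 °C in 551 (82.6%) and of AMPH rats at 22.5 °C in 242 (36.3%). Among the 559 genes higher in AMPH rats, these counts were 465 (83.2%), 226 (40.4%) and 107 (19.1%). For most genes higher in EIH, the medians of both saline groups thus lay nearer to AMPH rats at 16 °C, while for most genes higher in AMPH rats at 16 °C the saline rats at 22.5 °C lay nearer to EIH. Scimp shows the latter, with medians of 1901 in saline rats at 16 °C and 330.4 in saline rats at 22.5 °C. Rsad2 behaved otherwise, with 20558 and 26175 in the saline groups and 4539 in AMPH rats at 22.5 °C. Hsph1 had medians of 404 and 442 in the saline groups and 29881 in AMPH rats at 22.5 °C, with a range of 399.7 to 174581 in the latter. Its median in AMPH rats at 16 °C was 448. In Hspa1b the saline groups at 16 and 22.5 °C had lower medians of 10.2 and 11.8, and their highest values were 13.2 and 17.6. AMPH rats at 16 °C had a Hspa1b median of 57.8 and a range of 11.6 to 461.6, and this difference from saline was not tested. No saline rat at 22.5 °C was left out for its Mb level, and the part of this in these values was not tested.

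**Figure D3:**
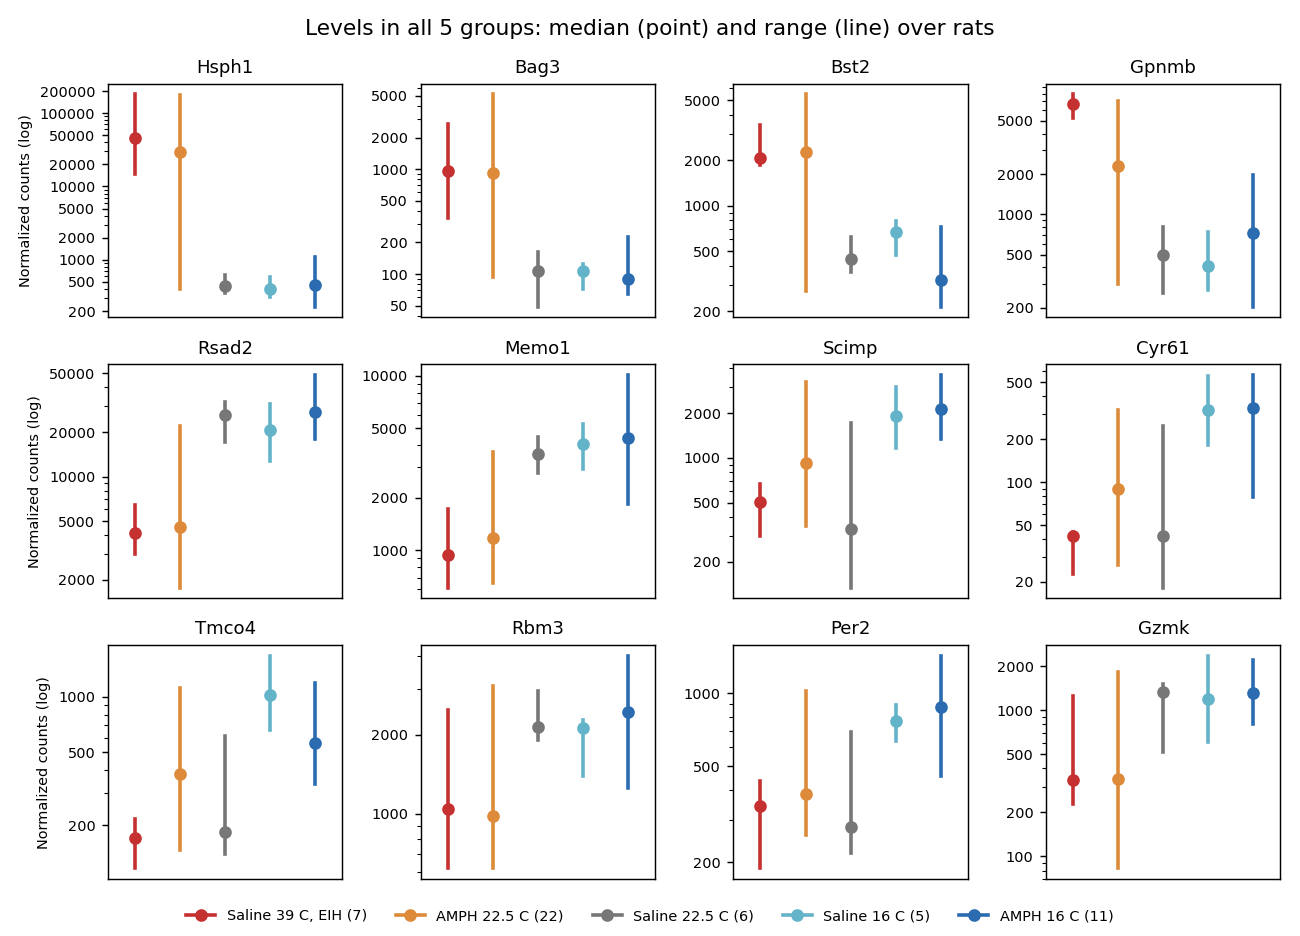
Median (point) and range (line) of normalized counts on a log axis in 7 EIH rats, 22 AMPH rats at 22.5 °C, 6 saline rats at 22.5 °C, 5 saline rats at 16 °C and 11 AMPH rats at 16 °C, for 12 genes. The saline groups lie beside AMPH at 16 °C in Hsph1, Bag3, Bst2, Gpnmb, Rsad2, Memo1, Rbm3 and Gzmk, while in Scimp, Cyr61, Tmco4 and Per2 the saline rats at 22.5 °C have medians near EIH.

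Besides chaperones, the 15 named genes with the most negative fold change held enzymes and membrane proteins. Akr1b8, an aldo-keto reductase that removes reactive aldehydes, had 33.7, 78.8 and 183 normalized counts in AMPH and 189.9, 1754 and 6090.2 in EIH rats. The gap between the groups was small because EIH replicate 4 had 189.9 and AMPH replicate 5, of the same project, 183, and the log2 fold change was -4.64 ± 0.51 (24.9-fold, adjusted p = 4.4e-05). Nat8l, the enzyme that makes N-acetylaspartate, had 5.3, 10.8 and 29.4 and 62.2, 216 and 450.3 (log2 fold change -4.18 ± 0.36, 18.1-fold, adjusted p = 4.61e-06). Gpnmb, a lysosomal glycoprotein of macrophages, had 203, 726 and 1949.9 in AMPH and 5249, 6705 and 7903 in EIH rats. Its EIH rats were close together and its AMPH rats widely spread, the reverse of the chaperones (log2 fold change -2.87 ± 0.36, 7.32-fold, adjusted p = 0.000121). Hes1, a repressor driven by Notch, had 14.3, 24 and 37.2 and 62.2, 139 and 613 (log2 fold change -2.75 ± 0.27, adjusted p = 1.68e-05). Eps8l1, an adaptor of the actin cytoskeleton, had 5.3, 13.0 and 17.5 and 44.1, 108 and 189 (log2 fold change -3.12 ± 0.27, adjusted p = 4.51e-06). BC030307 had 1.9, 9.7 and 23.3 and 30.5, 99.3 and 281 (log2 fold change -3.13 ± 0.40, adjusted p = 0.000131). The last 2 genes had few counts in AMPH rats, and the other named genes of this direction were the chaperones and Zfand2a described above.

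Genes of the oxidative stress response driven by Nrf2 were higher in EIH in 5 of 18 metallothionein and Nrf2 entries (27.8%, against 5.48% of all genes), and 0 were higher in AMPH rats. The list median was -0.24, so the called genes were a minority of the list. Srxn1, which repairs oxidized peroxiredoxins, had 12.0, 30.3 and 41.1 normalized counts in AMPH and 43.0, 139 and 389 in EIH rats, with all 7 EIH rats above the AMPH range (log2 fold change -2.51 ± 0.36, adjusted p = 0.000318). Gclc, the rate-limiting enzyme of glutathione synthesis, had 154, 206 and 291 and 303, 619 and 943, also with no overlap (log2 fold change -1.39 ± 0.18, adjusted p = 0.000154). Hmox1, heme oxygenase 1, had 273, 435 and 732 and 526, 1127 and 5766. Its highest value was EIH replicate 15, and 5 of 7 EIH rats lay above every AMPH rat (log2 fold change -1.94 ± 0.34, adjusted p = 0.00166). Osgin1, an oxidative stress growth inhibitor, had a log2 fold change of -2.10 ± 0.22 (adjusted p = 3.37e-05).

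Hypoxia and glycolysis genes were split, with 5 of 28 higher in EIH (17.9%) and 2 higher in AMPH rats (7.14%). The EIH side held P4ha1, a collagen prolyl hydroxylase, with 201, 385 and 778 in AMPH and 479.6, 1584 and 2667 in EIH rats (log2 fold change -1.66 ± 0.24, adjusted p = 0.000388). It also held Egln3, an oxygen-sensing prolyl hydroxylase (-1.14 ± 0.19, adjusted p = 0.00102), and Vegfa, the vascular growth factor (-1.05 ± 0.18, adjusted p = 0.00124). In Vegfa, 6 of 7 EIH rats lay above every AMPH rat. Slc2a3, the glucose transporter GLUT3, went the other way, with 769, 1664 and 3823 in AMPH and 449, 568 and 1440.2 in EIH rats (log2 fold change 1.31 ± 0.31, adjusted p = 0.0107).

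Of 26 immediate early genes, which are switched on within minutes of a stimulus, 4 were higher in EIH (15.4%) and 0 in AMPH rats, with a list median of -0.5. The count of 4 was 2 without EIH replicate 3 or 15, and 2 of the 4 kept their call in every fit without 1 rat. Egr1 had 37.2, 48.1 and 70.6 normalized counts in AMPH and 79.1, 152 and 366 in EIH rats, without overlap (log2 fold change -1.71 ± 0.21, adjusted p = 0.000112). Jun, a subunit of the transcription factor AP-1, had 149, 255 and 435 and 200.3, 838 and 3532, with EIH replicate 15 far above the others (log2 fold change -1.73 ± 0.40, adjusted p = 0.00979). Within project W26620 the difference of Jun had the opposite sign (0.95 on the log2 scale). Egr1 had the sign of the fit in all 5 projects, which its lack of overlap between the groups made certain.

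Interferon-stimulated genes gave 6 of 34 members higher in AMPH rats (17.6%, against 4.6% of all genes) and 1 higher in EIH (2.94%), with a list median of 0.42. The 6 were Rsad2, Ifitm3, Ifit1, Gbp2, Herc6 and Eif2ak2, all restrainers of viral growth or interferon-induced proteins, and all kept their call in each of the 18 fits without 1 rat. Without EIH replicate 13 the count was 10. Ifit1, which binds foreign RNA caps, had 4356, 9675 and 25339 normalized counts in AMPH and 1887, 2265 and 5998 in EIH rats. In this gene 9 of 11 AMPH rats lay above every EIH rat (log2 fold change 1.74 ± 0.37, adjusted p = 0.00565). Ifitm3, a membrane protein that blocks virus entry, had 50.4, 96.9 and 499 and 14.3, 26.8 and 94.4 (log2 fold change 2.30 ± 0.40, adjusted p = 0.00146). Its highest AMPH values were 499 in replicate 14 and 386 in replicate 2, and without replicate 2 the log2 fold change was 1.94. Bst2, known as tetherin, which holds budding virus at the cell surface, ran against the others, with 215, 323 and 726 in AMPH and 1867, 2068 and 3405 in EIH rats. Every EIH rat lay well above the highest AMPH rat, and Bst2 had the smallest adjusted p of the genes named here (log2 fold change -2.68 ± 0.18, 6.42-fold, adjusted p = 7.62e-07). Its medians were 675 and 444 in the saline groups at 16 and 22.5 °C and 2260.2 in AMPH rats at 22.5 °C.

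Markers of blood cell types moved in both directions. Of 18 neutrophil markers, 3 were higher in AMPH rats (16.7%) and 4 in EIH (22.2%), with a median of -0.19. S100a8, a subunit of the granulocyte protein calprotectin, had 62226, 180803 and 217934 normalized counts in AMPH and 28757, 52211 and 77149.6 in EIH rats. In this gene 10 of 11 AMPH rats lay above every EIH rat (log2 fold change 1.52 ± 0.31, adjusted p = 0.00424). Slpi, a secreted protease inhibitor, had 4911, 10663 and 15910.1 and 1316, 4839 and 8990.1 (log2 fold change 1.43 ± 0.30, adjusted p = 0.0051). The neutrophil markers higher in EIH included Ncf1, a subunit of the NADPH oxidase, with Ngp and Padi4. These counts depended on single rats, and 2 and 1 of the markers kept their call in every fit without 1 rat. The count higher in AMPH rats was 6 without EIH replicate 13 and 5 without AMPH replicate 13. The count higher in EIH was 1 without EIH replicate 3 and 2 without EIH replicate 2 or 15 or AMPH replicate 7 or 13.

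Monocyte markers were higher in EIH in 5 of 16 entries (31.2%) and in AMPH rats in 0, with a median of -0.35, and the 5 kept their call in each fit without 1 rat. Csf1r, the receptor of the monocyte growth factor CSF1, had 979.6, 1498 and 1665 normalized counts in AMPH and 1656, 2753 and 3857 in EIH rats. The groups nearly separated, with 6 of 7 EIH rats above every AMPH rat (log2 fold change -0.92 ± 0.16, adjusted p = 0.00167). Cybb, the catalytic subunit of the phagocyte oxidase, had 1205, 1771 and 2821 and 2414, 3314 and 5221 (log2 fold change -0.90 ± 0.18, adjusted p = 0.00358). Cd68, a lysosomal protein of macrophages, had a log2 fold change of -0.90 ± 0.22 (adjusted p = 0.0132), and Cx3cr1, the fractalkine receptor, one of -1.18 ± 0.28 (adjusted p = 0.0118). Cd14, the lipopolysaccharide co-receptor, had 267, 757 and 2050.4 and 585, 1158 and 4009 and did not pass the test (log2 fold change -0.78 ± 0.41, adjusted p = 0.259), nor did the chemokine receptor Ccr1 (log2 fold change 0.04 ± 0.25, adjusted p = 0.955).

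Toll-like receptor genes, whose products detect microbial molecules in myeloid cells, gave 5 of 18 higher in EIH (27.8%) and 0 in AMPH rats, with a median of -0.18 and 8 of the 18 entries above 0. Tlr8, a sensor of single-stranded RNA, had 259, 389 and 846 normalized counts in AMPH and 741, 1431 and 1571 in EIH rats, and 6 of 7 EIH rats lay above every AMPH rat (log2 fold change -1.46 ± 0.22, adjusted p = 0.000408). Tlr5, the flagellin sensor, had 114, 231 and 554 and 349.9, 579.8 and 896 (log2 fold change -1.25 ± 0.23, adjusted p = 0.00258). Tlr7, another RNA sensor, had a log2 fold change of -0.73 ± 0.15 (adjusted p = 0.00546), and Irak2, a kinase downstream of these receptors, one of -0.89 ± 0.21 (adjusted p = 0.0104). The 5 called monocyte markers were also higher in EIH, and their part in these 4 differences was not tested.

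Natural killer and cytotoxic markers were higher in AMPH rats in 5 of 22 entries (22.7%) and in EIH in 0, with a median of 0.47. Gzmk, a granzyme of cytotoxic lymphocytes, had 808, 1321 and 2194 normalized counts in AMPH and 229, 333 and 1251 in EIH rats. Of the EIH rats 6 lay below every AMPH rat, and replicate 14 lay within the AMPH range (log2 fold change 1.73 ± 0.31, adjusted p = 0.0017). Klrg1, an inhibitory lectin receptor, had 79.6, 187 and 393 and 41.5, 58.1 and 132 (log2 fold change 1.52 ± 0.34, adjusted p = 0.0071). Ncr1, the natural killer receptor NKp46, had 298, 492 and 618 and 118, 169.7 and 391 (log2 fold change 1.18 ± 0.27, adjusted p = 0.0097). EIH replicate 14 was the highest EIH rat in 4 of the 5 called markers.

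T-cell markers gave 0 of 26 called entries, with a median log2 fold change of 0.28. Cd3e, a chain of the T-cell receptor complex, had 361, 761 and 1375 normalized counts in AMPH and 247, 581 and 1202 in EIH rats (log2 fold change 0.30 ± 0.29, adjusted p = 0.567). Cd8a and Cd28 had log2 fold changes of 0.25 ± 0.28 and 0.16 ± 0.26 (adjusted p = 0.641 and 0.773). These 3 genes overlapped widely between the groups, and a p that misses the threshold does not show that they were equal. B-cell markers were higher in EIH in 3 of 19 entries (15.8%), of which 1 kept its call in every fit without 1 rat. That gene was Blk, a kinase of the B-cell receptor pathway (log2 fold change -0.80 ± 0.18, adjusted p = 0.00868), while Cd79b had -0.05 ± 0.30 and did not pass (adjusted p = 0.947). MHC class II genes, which present antigen on B cells and monocytes, had 0 of 12 called. The B-cell count was 1 without EIH replicate 3 or 4 or AMPH replicate 5. In MHC class II genes 3 were higher in AMPH rats without EIH replicate 4 or AMPH replicate 5, and 2 in EIH without EIH replicate 13.

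**Figure D4:**
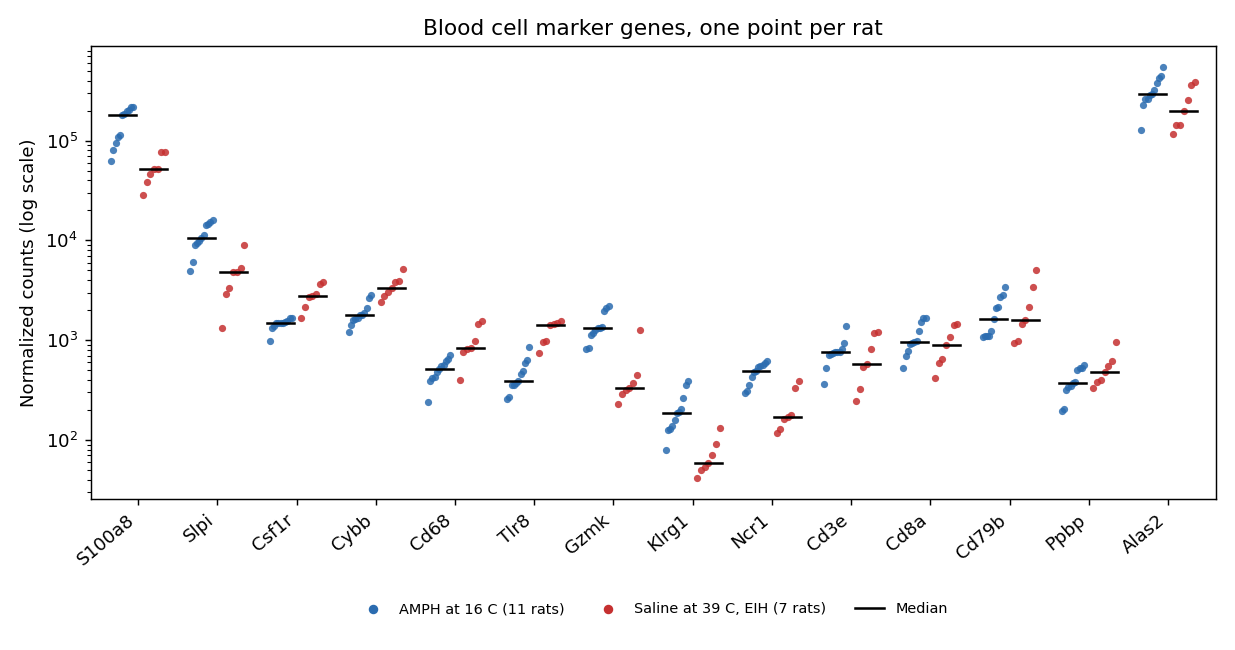
Normalized counts (log axis) of marker genes of neutrophils (S100a8, Slpi), monocytes (Csf1r, Cybb, Cd68), cytotoxic cells (Gzmk, Klrg1, Ncr1), T cells (Cd3e, Cd8a), B cells (Cd79b), platelets (Ppbp) and reticulocytes (Alas2), and of the Toll-like receptor gene Tlr8, 1 point per rat, for 11 AMPH rats at 16 °C (blue) and 7 EIH rats (red), with the group median as a black bar. The medians are higher in AMPH rats for the neutrophil and cytotoxic genes shown and higher in EIH rats for Csf1r, Cybb, Cd68 and Tlr8.

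Eosinophil and basophil markers gave 1 of 11 in each direction (9.09%, against 4.6% of all genes higher in AMPH rats and 5.48% in EIH). The one higher in AMPH rats was Ccr3, the eotaxin receptor, with 42.0, 93.2 and 195 and 19.1, 30.0 and 69.9 normalized counts (log2 fold change 1.26 ± 0.32, adjusted p = 0.015). Platelet markers gave 1 of 23 (4.35%, against 5.48% of all genes), P2ry1, an ADP receptor that was higher in EIH (log2 fold change -1.13 ± 0.20, adjusted p = 0.00194). The platelet chemokine Ppbp had 194, 376 and 561 and 329, 481 and 963 and was not called (adjusted p = 0.223). Reticulocyte markers gave 1 of 29 higher in AMPH rats (3.45%, against 4.6% of all genes). It was Fech, which inserts iron into heme, with 16423, 60356 and 137615 in AMPH and 11985, 20265 and 43347 in EIH rats (log2 fold change 1.34 ± 0.29, adjusted p = 0.00703). The platelet and reticulocyte shares did not exceed those of all genes, so these single genes are not results about the cell types. Alas2, the first enzyme of heme synthesis in red cells, had 128169, 290688 and 554048 and 117412, 199477 and 384475 and did not pass (adjusted p = 0.41), and Hba-a2, an alpha globin whose transcript had been depleted, had a log2 fold change of 0.49 ± 0.91. The hemoglobin shares given above overlapped between the groups, and their part in the level of Fech was not tested. The count of 1 eosinophil or basophil marker higher in AMPH rats was 3 without EIH replicate 3, that of 1 platelet marker was 2 without EIH replicate 3 or 4 or AMPH replicate 4, 5 or 8, and that of 1 reticulocyte marker was 4 without EIH replicate 15 and 2 without AMPH replicate 13.

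Cardiac muscle markers had 0 of 14 called, although their median log2 fold change was 1.93. Their summed level ran from 328.6 to 161327 normalized counts in AMPH rats, where replicate 2 held the highest value, and from 148.7 to 2879 in EIH rats. Mb alone had 3.7, 78.5 and 37328 and 0, 18.1 and 734, and its log2 fold change of 2.85 ± 2.75 did not pass the test (adjusted p = 0.577). Vessel wall and fibroblast markers gave 2 of 9 higher in EIH (22.2%, against 5.48% of all genes). Among them was Kdr, the VEGF receptor of endothelium, with 16.7, 34.3 and 115 and 49.9, 105 and 235 (log2 fold change -1.63 ± 0.37, adjusted p = 0.00922).

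Of 21 entries for glucocorticoid-responsive genes, 2 were higher in AMPH rats (9.52%) and 1 in EIH (4.76%), with a median of 0.28. Anxa1, a calcium-binding protein that restrains neutrophils, had 19839, 43748 and 56906 normalized counts in AMPH and 7853, 10743 and 23557 in EIH rats, and 10 of 11 AMPH rats lay above every EIH rat (log2 fold change 1.74 ± 0.24, adjusted p = 0.000272). Tsc22d3, the leucine zipper protein GILZ, had 6732, 10013 and 16224 and 4843, 6189 and 7935, likewise with 10 AMPH rats above the EIH range (log2 fold change 0.73 ± 0.16, adjusted p = 0.00781). The other 18 entries did not pass the threshold, 12 of them with a positive log2 fold change. Among these were Il1r2, the decoy receptor of interleukin 1 (1.16 ± 0.40, adjusted p = 0.0693), and the phosphatase gene Dusp1 (0.75 ± 0.26, adjusted p = 0.0739), both chosen after their values were seen. Fkbp5 had 727, 954 and 2257 and 654, 986 and 1371 (log2 fold change 0.33 ± 0.23, adjusted p = 0.396), and Per1 had 113, 368 and 799 and 169.6, 369.9 and 695 (log2 fold change -0.04 ± 0.34, adjusted p = 0.963). Cxcr4, the chemokine receptor that retains leukocytes in marrow, was the member higher in EIH (log2 fold change -1.07 ± 0.22, adjusted p = 0.00484). The count of 2 higher in AMPH rats was 4 without EIH replicate 15 or AMPH replicate 13, and the count of 1 was 2 without EIH replicate 4 or 15 or AMPH replicate 1, 5 or 13.

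Of 13 clock genes 1 was called, higher in AMPH rats (7.69%, against 4.6% of all genes). It was Per2, a repressor of the circadian clock, with 454, 879 and 1424 normalized counts in AMPH and 189, 341 and 433 in EIH rats. The groups did not overlap in Per2 (log2 fold change 1.25 ± 0.23, adjusted p = 0.00176). Catecholamine signalling genes gave 1 of 12 higher in EIH (8.33%, against 5.48% of all genes), Maob, which lost its call in 14 of the 18 fits without 1 rat. Among 22 cytokine and NF-kB feedback genes, 1 was higher in AMPH rats (4.55%) and 2 in EIH (9.09%), against 4.6% and 5.48% of all genes. The only 1 called in all 18 fits was Tnfaip3, the ubiquitin-editing inhibitor A20 (log2 fold change -0.96 ± 0.21, adjusted p = 0.00682). The count of 2 was 4 without EIH replicate 4, 5 without AMPH replicate 5 and 1 without EIH replicate 2 or 3 or AMPH replicate 13. Arginine metabolism genes had 0 of 11 called. Nos2, the inducible nitric oxide synthase, is listed under 2 identifiers, with log2 fold changes of -0.31 ± 0.38 and -0.93 ± 0.42 (adjusted p = 0.672 and 0.178). Arg1, arginase of myeloid cells, had 5.3, 11.1 and 53.4 and 0, 4.1 and 791. All EIH rats but replicate 2 were at 15.9 or lower. The fit with the project term gave a log2 fold change of 0.75 ± 0.88 (adjusted p = 0.661), and the fit without it gave -3.1, past the threshold in the EIH direction (adjusted p = 0.049). The difference within H33741, the project of replicate 2, was -6.66 on the log2 scale, and those of the other 4 projects were positive.

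Few ribosomal protein and respiratory chain genes passed the threshold, while the share of cell cycle genes was greater. Of 23 cell cycle entries 5 were higher in AMPH rats (21.7%, against 4.6% of all genes) and 0 in EIH. Of these 5, 1 kept its call in every fit without 1 rat. That was the more abundant of the 2 entries of Rrm2, a subunit of ribonucleotide reductase, with 1615, 4942 and 9934 normalized counts in AMPH and 731, 1849 and 3043 in EIH rats (log2 fold change 1.36 ± 0.26, adjusted p = 0.00296). The count of 5 was 2 or 3 without EIH replicate 1, 2, 3, 4 or 14 or AMPH replicate 5 or 14. Ribosomal protein genes had 0 of 98 called, at a median of 0, and respiratory chain genes had 1 of 79 called, at a median of 0.23. The 1 was Atp5f1, a subunit of the mitochondrial ATP synthase, with 1511, 2065 and 4385 and 999.5, 1374 and 1635 (log2 fold change 0.84 ± 0.18, adjusted p = 0.00668). For the 5 lists with 0 calls in edgeR, the unadjusted p was under 0.05 in 2 T-cell markers, 1 cardiac muscle marker, 6 MHC class II genes (2 higher in AMPH rats and 4 in EIH), 5 arginine metabolism genes (2 and 3) and 0 ribosomal protein genes. DESeq2 called 0 T-cell and 0 cardiac muscle markers, 3 MHC class II genes, 1 arginine metabolism gene and 1 ribosomal protein gene.

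**Figure D5:**
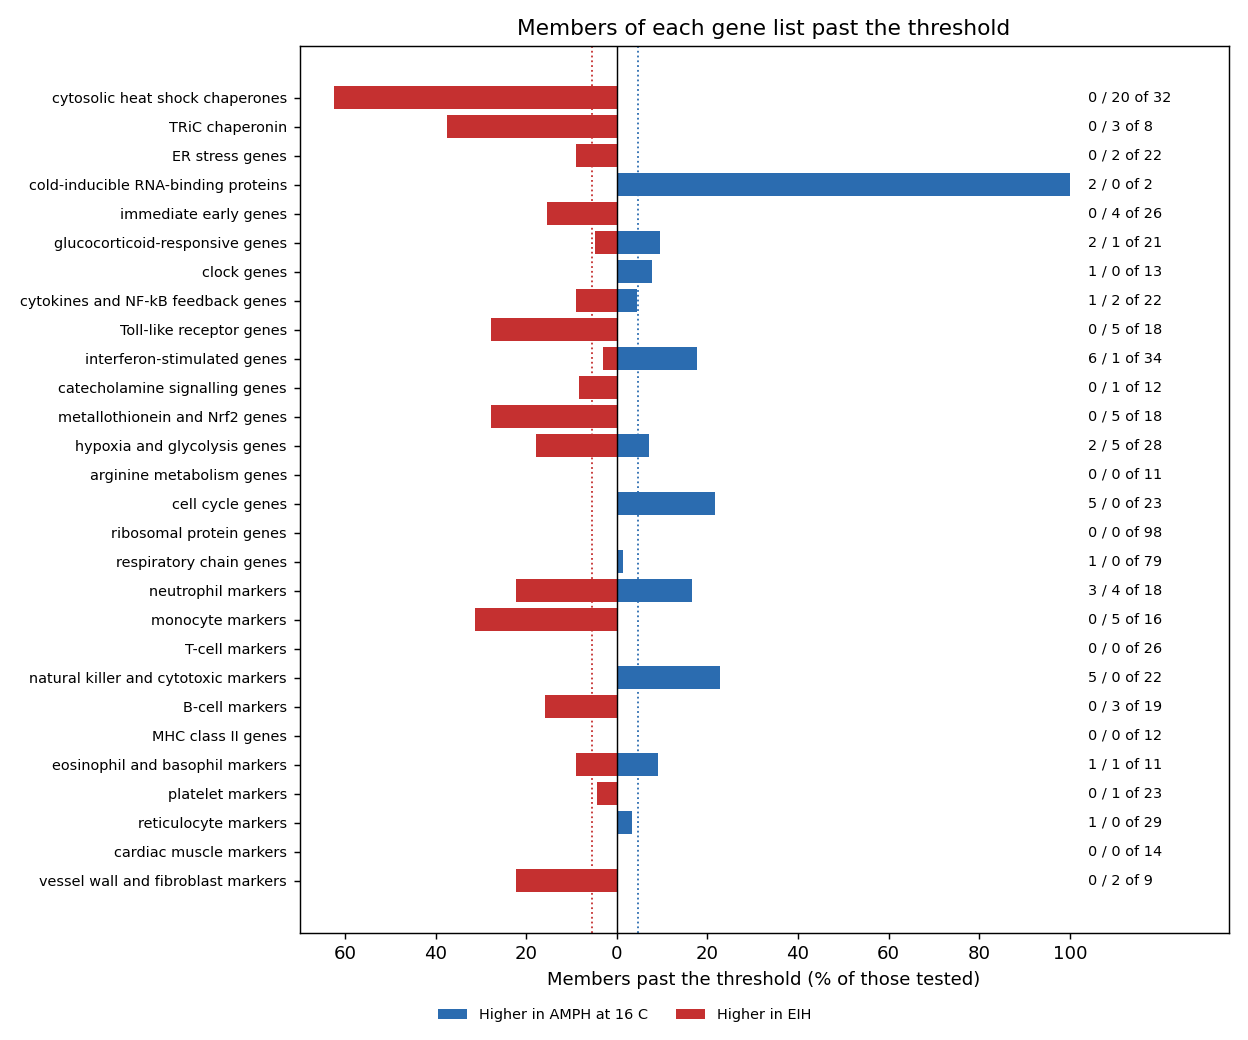
Percentage of the tested members of each gene list shown that passed the threshold, to the right for genes higher in AMPH rats at 16 °C (blue) and to the left for genes higher in EIH rats (red), with the counts in both directions and the number tested at the right. Dotted lines mark the share of all 12164 genes tested, 4.6% and 5.48%, and the cytosolic heat shock chaperones reach 62.5% on the EIH side.

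The fold changes were also set beside each other within projects. In the 6 rats of H27649 alone, 7 genes were higher in AMPH rats and 28 in EIH, 10 of them chaperones. In the 5 rats of H30620 the counts were 0 and 3, and all 3 were chaperone entries. In the 3 rats of H30622 the counts were 395 and 809 with 26 chaperone entries, where the single EIH rat was assumed to vary like the AMPH rats and was EIH replicate 15. Hspa1b, Hsph1, the more abundant Hspa8 entry, both HSP90 genes, Stip1, Dnajb1, Dnaja1 and Bag3 had the same sign in every project. The groups did not overlap in these genes, so the same sign had to follow and is no separate check. Hsp90aa1 differed by -4.84, -4.98, -3.39, -2.91 and -7.38 on the log2 scale in H27649, H33741, W26620, H30620 and H30622. Over all 15 AMPH rats at 16 °C and all 16 EIH rats of the series, without a project term, 845 genes were higher in AMPH rats and 1331 in EIH, and 25 of 32 chaperone entries were among the latter.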

How the data were processed

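Whole blood RNA of 18 rats (11 given AMPH at 16 °C, 7 with EIH) was analysed, 1 file per rat. Per the labels and the study's methods, the authors depleted globin transcripts and sequenced stranded, paired libraries of polyadenylated RNA. Clipped reads were mapped with Bowtie 0.12.9 to Ensembl rat transcripts and quantified with RSEM 1.2.0 (versions, CASAVA 1.8.2 and build rn5 from the submitters' processing notes). The authors deposited RSEM expected counts per gene, neither rounded nor normalized. RSEM divides reads shared by near-identical genes between them, so such copies are uncertain.

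Groups came from the labels and project codes from the file names. Expected counts were rounded. The 18 files carry 4 gene lists of 18503 to 26405 genes, and the 17565 genes common to all 18 were used, 2325 of them named by an Ensembl identifier only. Counts outside them were at most 0.0111% of a file. No 2 rats of a group agreed within sampling noise. Genes reaching 10 counts in 7 or more rats were tested with the quasi-likelihood test of edgeR 4.0.16 (TMM, R 4.3.3, limma 3.58.1), with project as covariate and Benjamini-Hochberg adjustment over all 12164 genes. The threshold was an adjusted p under 0.05 with an absolute log2 fold change above 0.58. Standard errors follow from the fold change and its F statistic. Normalized counts are counts over median-of-ratios size factors. Hemoglobin share and total count were compared by exact permutation within projects (Python 3.11.15, numpy 2.4.6, scipy 1.17.1, pandas 2.3.3), and figures were drawn with matplotlib 3.10.9. The scripts were tested on simulated data. Total counts of 22946699 to 36838622 limit precision mainly for genes with few counts.

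Alternatives were DESeq2 1.42.0, other scalings, filters and thresholds, no project term, hemoglobin genes left out, each rat or project left out, single projects, all 31 rats of both groups and a block on the label numbers. Genes described were a set of anchors of heat, cold, immune, hormone and muscle biology, the 15 with the greatest fold change in each direction (called in all 18 fits without 1 rat, groups not overlapping, group mean of 100 normalized counts or more), and up to 4 called genes per list. Others were chosen after their values were seen, and some genes that these rules name are not reported here. The comparison, the lists and these rules were chosen with earlier results of these data known.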

Additional observations from a re-analysis of the deposited data

Results flagged for a closer look

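Among the 7 EIH rats, 95 values of the genes and measures above were tested for a single rat far from the other 6, by the gap to its nearest neighbour over the whole range of the group, with Dixon's 95% critical value for 7 samples as the limit. Chance takes about 1 in 20 groups of normally distributed values past this limit, and 14 of the 95 were past it. Normalized counts were used without a log scale, and in Hspa1b they ran from 1504.6 to 251410.6 in EIH rats. The share that chance takes past the limit in such skewed values is not known. They are not independent, since most share the same rat. The 11 AMPH rats are too many for this test.

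EIH replicate 15 was the rat in 11 of the 14. In normalized counts it stood above the other EIH rats in Hspa1b with 251410.6, which the files list under 2 identifiers with the same counts, in Dnajb1 with 6721.7, in Bag3 with 2688.3, in Jun with 3531.6, in Hes1 with 612.5, in Hmox1 with 5765.8, in Cxcr4 with 6376.4 and in both entries of Nos2 with 22855.3 and 8110.7. It stood below them in Mdm1 with 47.7. This rat had the smallest size factor of the 18 (0.524) and the largest hemoglobin share of the EIH group (16.6%), and their part in these values was not tested.

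EIH replicate 2 stood apart in Arg1 with 791.1 and in Ifitm3 with 94.4 normalized counts. EIH replicate 14 stood apart in Gzmk with 1251.0.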

How the results depend on the processing

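The counts of 559 genes higher in AMPH rats and 667 in EIH were 419 to 575 and 500 to 694 when 1 rat was left out, and stayed within 1.5 times of themselves under other size factors, DESeq2, no or a stricter count filter, no project term and hemoglobin genes left out. They moved to 188 and 205 with library size only, 182 and 248 without project H27649, 7 and 28 in H27649 alone, 0 and 3 in H30620 alone (edgeR, where 944 genes had an unadjusted p under 0.05), 845 and 1331 over all rats of both groups, and 250 and 272 at a log2 fold change above 1. Fits of 1 project hold fewer rats, and the cause of the moves under library size and without H27649 was not tested. The log2 difference in total count was 0.149 and did not pass the two-sided exact permutation test within projects (p = 0.119). Without 1 rat it ranged from 0.0947 to 0.196. Among these fits it passed the same test only without EIH replicate 1 (0.196, p = 0.0467) and without AMPH replicate 15 (0.176, p = 0.0475). Of 77 gene entries of the text past the threshold, 0 turned direction, and the call was lost in 74 in H30620 alone, 58 in H27649 alone, 28 under the replicate block, 22 without H27649, 22 in H30622 alone and 21 with library size only. Genes named by size were chosen as called in every fit without 1 rat, so those fits do not test them.

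The log2 fold changes that turned direction belonged to genes that were not called. In H30622 alone these were -1.061 in Alas2, -0.385 in Ccr1, 0.997 in Cd79b, -1.672 in Hba-a2 and -3.616 in Mb, the last with an adjusted p of 2.53e-13 among 3 rats. In H30620 alone they were -0.083 in Cd28, -0.075 in Cd3e, 0.007 in Cd79b, -0.098 in Fkbp5, -1.526 in Hba-a2 and 0.12 in Per1, and in H27649 alone -0.077 in Ccr1, -0.041 in Cd28, 0.03 in Cd79b, -0.274 in Cd8a and 0.283 in Per1. With W26620 left out they were -0.153 in Ccr1 and 0.217 in Cd79b. With H30620 left out Ccr1 was -0.014, with H33741 left out Cd28 was -0.032 and Per1 0.011, with H27649 left out Hba-a2 was -0.46, and with H30622 left out Nos2 was 0.105 and Per1 0.178. Without a project term Arg1 was -3.1 (adjusted p = 0.049) and Ccr1 -0.051, and over all rats Ccr1 was -0.007, Hba-a2 -0.39 and Per1 0.002. Leaving out 1 rat at a time gave -0.161 to 0.149 in Ccr1, -0.051 to 0.381 in Cd28, -0.247 to 0.216 in Cd79b, -0.609 to 0.098 in Nos2 and -0.177 to 0.169 in Per1, where 0.025 was the value without the rat over 5000 Mb counts.

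The groups share 7 label numbers, but rats of the same number did not deviate together (mean correlation -0.0575, 0 of 7 pairs over 0.1, and 0 rats closest to their own number). Rats of the same project did not do so either by this measure (mean correlation -0.000336, against 0.000787 for other projects). It therefore cannot decide whether the numbers pair the rats. A replicate block on the number over those 14 rats gave 191 and 136 genes, with Nos2 at 0.095. The same 14 rats with the project term, an alternative chosen after seeing the data, gave 354 and 493, with Ccr1 at -0.299 and Cd79b at 0.307.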
